A study of Mus musculus with 4 samples.

Results

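Heat shock and DnaJ genes were followed as a single module through the open chromatin of 4 mouse muscles. A peak belonged to the module when the gene name beside it in the peak list began with Hsp and a letter or digit, or with Dnaja, Dnajb or Dnajc, or was Hsf1 or Hsf2. The letters matched 71 genes, of which Hspg2 was left out because it encodes perlecan, a proteoglycan of the extracellular matrix. The other 70 genes held 407 of the 120839 peaks, 199 of them in promoters and 208 elsewhere. Joining peaks that overlapped by 1 bp or more gave 169 member regions of 53883 in all. The annotation of the same genome build, GRCm38/mm10, holds 76 protein-coding genes with such names, so 6 members had no peak under their own name.

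The muscles were the extensor digitorum longus (EDL), quadriceps (Quad), soleus (Sol) and diaphragm (Dia) of wild type, sedentary C57BL/6 mice, whose methods give males of the J substrain without any other allele or agent. EDL and Quad are limb muscles rich in fast glycolytic fibres, Sol is a slow oxidative postural muscle, and Dia contracts with every breath. ATAC-seq was done on powder of frozen whole muscle, so the nuclei of fibres, vessels and connective tissue were sequenced together, and fewer nuclei of a cell type cannot be told apart from less open chromatin in each. There was 1 sample with 1 peak list per muscle, each labelled as pooled, with no replicate list, so no difference between muscles could be tested and all intervals below are 95% intervals that cover counting error only.

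The EDL list held 30136 peaks, that of Quad 40337, that of Sol 28784 and that of Dia 21582. Peak width was fixed within a list, at 208, 188, 206 and 232 bp in the same order. The lowest score that was called corresponded to between 25 and 36 sequence tags, and the spacing of scores implied between 78.1 and 105 M tags a list if scores are scaled to 10 M, the default of the caller. Because width and threshold were set within each list, peaks were compared by the percentile of their score within the list, where 50 is the median peak. Values printed without a muscle name follow the order EDL, Quad, Sol and Dia. A missing peak means only that none was called there. Of 9 skeletal muscle markers, 7 (EDL), 7 (Quad), 6 (Sol) and 4 (Dia) had a promoter peak, and Ckm, Ttn and Des had one in every list. Promoter peaks of 3 endothelial markers numbered 3, 3, 3 and 1, those of 3 leukocyte markers 0 in each list, and those of 3 fibroblast markers 1, in Sol. Of 4 markers of other tissues, none had a promoter peak.

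Chaperones hold unfolded proteins, fold them or hand them on. The HSP70 proteins bind and release short hydrophobic stretches with ATP, the DnaJ (J domain) proteins bring them clients and start ATP hydrolysis, and the HSP110 proteins exchange their nucleotide. HSP90 proteins finish the maturation of kinases and receptors, the Hspd1 and Hspe1 pair forms the folding chamber of the mitochondrion, and the small heat shock proteins keep damaged proteins, including those of the sarcomere, from aggregating. In stress, Hsf1 forms trimers that bind heat shock elements, which are arrays of GAA and its reverse complement TTC in alternation.

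A stress list of 11 members was made of genes that Hsf1 is known to act on in heat shock. It takes in Hspa8 and Hsp90ab1, which are also abundant without stress, and the genes Hspd1 and Hspe1, which share a promoter. The sequences that carry the element in open promoters of this list are shown first, read 5′ to 3′ on the strand of the gene, from the GRCm38/mm10 genome of RefSeq. The motif searched was an inverted pair, GAANNTTC or TTCNNGAA, and its longer form with 3 alternating units, GAANNTTCNNGAA or TTCNNGAANNTTC. Each pair reads the same on either strand, the longer forms are reverse complements of each other, and every match to the longer form also holds 2 overlapping pairs. Capitals mark the longer form where the site has it and the pair elsewhere. Hspa1a and Hspb1 are shown over a whole peak as far as it lies outside annotated exons, in EDL and Sol respectively, to place the element within the peak. The others are 30-base sites, since an annotated exon of the gene or of its neighbour reaches them. Of the 8 sequences, 4 lie wholly within the RefSeq promoter table.
Hspa1a, chr17:34972244-34972452, minus strand: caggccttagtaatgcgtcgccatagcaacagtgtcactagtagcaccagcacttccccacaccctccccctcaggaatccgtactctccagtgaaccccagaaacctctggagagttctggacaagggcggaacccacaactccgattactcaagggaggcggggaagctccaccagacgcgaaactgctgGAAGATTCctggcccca
Hspa8, chr9:40801213-40801242, plus strand: cggcacccTTCTGGAAGGTTCtaagacagg
Hspa8, chr9:40801055-40801084, plus strand: gcgagcgtGAAAGTTCCAGAAcgccgcggt
Hsph1, chr5:149636351-149636380, minus strand: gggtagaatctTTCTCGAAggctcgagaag
Hsp90aa1, chr12:110696379-110696408, minus strand: ggagggttcTTCCGGAAGGTTCcggaggct
Dnaja1, chr4:40722333-40722362, plus strand: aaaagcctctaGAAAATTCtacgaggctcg
Hspb1, chr5:135887800-135887918, plus strand: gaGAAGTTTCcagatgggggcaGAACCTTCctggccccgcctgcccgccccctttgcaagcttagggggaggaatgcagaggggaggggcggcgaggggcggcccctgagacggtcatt
Hspe1, chr1:55088053-55088082, plus strand: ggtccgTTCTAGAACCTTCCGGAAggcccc

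The Hspa1a peak of EDL ran from −296 to −88 relative to the transcription start, counted from the start that the peak list names, with negative values upstream. Its inverted pair stood at −104 to −97, near the 3′ end of the peak. The pairs of Hspb1, which encodes a small heat shock protein that caps actin filaments, stood at −117 to −110 and −97 to −90 in the Sol peak. Hspa8, the cytosolic HSP70 that is abundant without stress, had one set of 3 units at −52 to −40 and another at −210 to −198. The Hspe1 site at −89 to −72 held 4 alternating units and lay between the starts that GENCODE gives for Hspe1 and Hspd1, the mitochondrial chaperonin genes, which are read in opposite directions. The Hsp90aa1 site crossed the start, from −4 to 8.

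Between 1 kb upstream and 100 bp downstream of their starts, the 11 members of the stress list held 22 separate elements, 6 of them with at least 3 units and 16 pairs. All 6 of the longer elements, which belonged to 5 genes, lay within a peak of at least 1 list, against 6 of the 16 pairs. These counts are not matched for position. The longer elements all lay between −210 and 78, whereas the pairs without a peak included several from −994 to −442. The Hspa8 element at −52 was the one that lay within a peak in all 4 lists. The Hspa8 element at −210 was covered in EDL, Sol and Dia, and the narrower Quad peak began within it. The Hsp90aa1 element was covered in EDL, Quad and Sol, while the Dia peak ended 128 bp upstream of it. For Hsph1, the HSP110 protein of stressed cells, the element of 3 units at 36 to 48 was covered in Quad and Sol, and the EDL and Dia peaks lay 348 and 336 bp upstream of it. The Hspe1 element was covered in EDL and Dia and lay 67 bp outside the Quad peak and 21 bp outside the Sol peak. Dnajb1, the main J protein partner of stress-induced HSP70, had 4 pairs in its window and none within a peak.

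**Figure D1:**
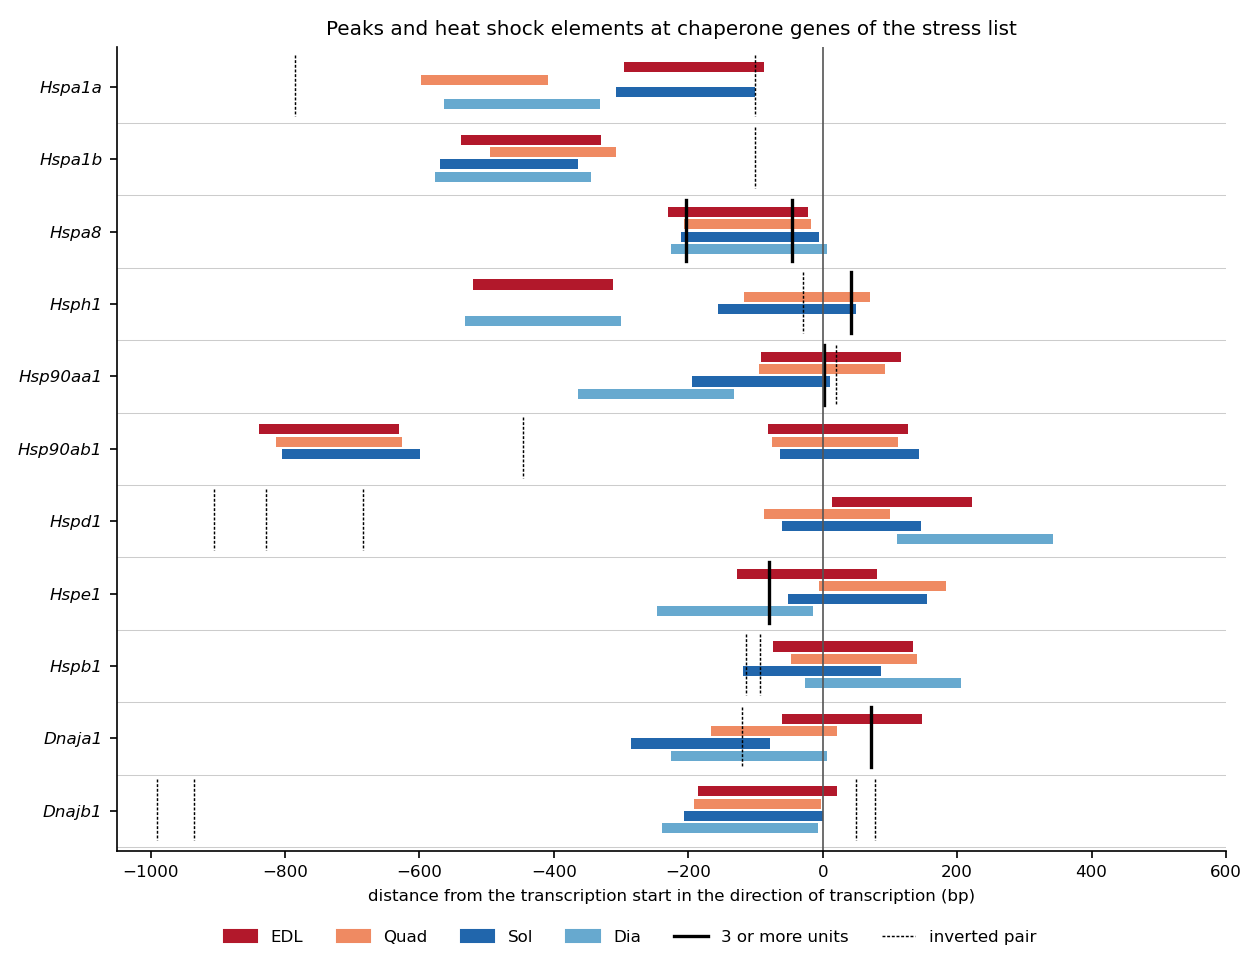
Peaks at the 11 members of the stress list by distance from the transcription start in bp, in the direction of transcription, with a bar for each peak coloured by list (EDL, Quad, Sol and Dia from top to bottom within a gene). Vertical solid lines mark elements of 3 or more units and dashed lines inverted pairs; the bars of Hspa8 line up over its element at −52 in all 4 lists, while those of Hsph1 fall in 2 places and Hsp90ab1 has no bar for Dia.

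Over all member promoter peaks, the inverted pair was found in 8 of 50 in EDL (16.0%, Wilson interval 8.34 to 28.5%), where 7.18% of all promoter peaks held it. In Quad it was found in 6 of 53 (11.3%, 5.29 to 22.6%) against 6.33% and in Sol in 6 of 47 (12.8%, 5.98 to 25.2%) against 6.97%. The Dia list had it in 5 of 49 (10.2%, 4.44 to 21.8%) against 7.75%. The share was above that of all promoter peaks in each list, and the interval of the members held the background share in Quad, Sol and Dia. The longer form set the members further apart. It was held by 5 member peaks in EDL (10%, 4.35 to 21.4%) against 0.14% of all promoter peaks, 3 in Quad (5.66%, 1.94 to 15.4%) against 0.136%, 4 in Sol (8.51%, 3.36 to 19.9%) against 0.24% and 3 in Dia (6.12%, 2.10 to 16.5%) against 0.202%. Put as counts, 5 of the 13 EDL promoter peaks with 3 alternating units were members, as were 3 of 14 in Quad, 4 of 22 in Sol and 3 of 18 in Dia. The lists share most of these sites and are not separate evidence.

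In at least 1 list, 12 member genes had a promoter peak with a pair, and 8 of them were in the stress list. The other 4 were Dnajb4, Dnajb6, Hspa4l and Hspb8. The longer form was found in peaks named for 7 genes, 6 of them in the stress list (Dnaja1, Hsp90aa1, Hspa8, Hspd1, Hspe1 and Hsph1), of which Hspd1 and Hspe1 were named beside the same element in different lists. The remaining one was Dnajb6, a J protein that blocks aggregation and is mutated in a limb-girdle muscular dystrophy, whose peaks in EDL, Sol and Dia held 3 units. Dnajb4, a cytosolic J protein, had the pair in all 4 lists.

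**Figure D2:**
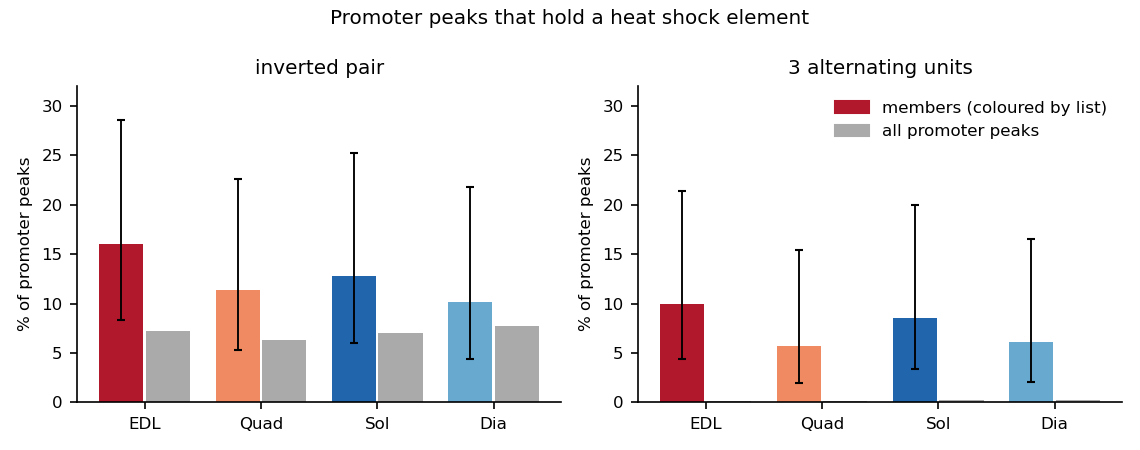
Share of promoter peaks, in percent, that hold an inverted pair (left) or 3 alternating units (right), for member peaks (coloured bars by list, with 95% Wilson intervals) and for all promoter peaks of the list (grey bars). The grey bars stand between 6.33 and 7.75% on the left and are barely visible on the right, where members reach 10% in EDL.

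Member peaks lay in promoters more often than the peaks of the lists as a whole. Promoters held 50 of 98 member peaks in EDL (51.0%, 41.3 to 60.7%) and 53 of 124 in Quad (42.7%, 34.4 to 51.5%). They held 47 of 99 in Sol (47.5%, 37.9 to 57.2%) and 49 of 86 in Dia (57.0%, 46.4 to 66.9%). Over all peaks the share was 30.7%, 25.5%, 31.9% and 41.3%, below the members' interval in each list. By gene, 49 of the 76 members had a promoter peak in EDL (64.5%), 48 in Quad (63.2%), 46 in Sol (60.5%) and again 48 in Dia (63.2%). Of all 21924 protein-coding genes, 38.1% had one for EDL, 41.8% for Quad, 38% for Sol and 37.4% for Dia. The member counts of the 4 lists thus lay within 3 genes of each other.

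Member promoters were also high in the ranking of their list. The median percentile of a member gene's best promoter peak was 89.2 in EDL (76.7 to 93.8, n = 49 genes) and 91.1 in Quad (83.3 to 94.3, n = 48). In Sol it was 88.1 (76.6 to 93.7, n = 46) and in Dia 84.6 (77.6 to 91.1, n = 48). These medians depend on the length of the list. With the 20000 highest peaks kept in each list they were 85.2 (EDL), 84.7 (Quad), 83.0 (Sol) and 83.3 (Dia). In the full lists, the median over all genes with a promoter peak was 77.1, 82.1, 76.6 and 74.1. It lay below the members' interval in Quad and Dia and at or just above its lower end in EDL and Sol. Member promoter peaks resembled other promoter peaks in base composition, with a median GC content between 63.9 and 64.8% against 63.6 to 64.6%, and their median CpG ratio, observed over expected, lay between 0.880 and 0.897 against 0.815 to 0.823. Their median position was −67.5 bp (EDL), −44 bp (Quad), −59 bp (Sol) and −58 bp (Dia) from the start.

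**Figure D3:**
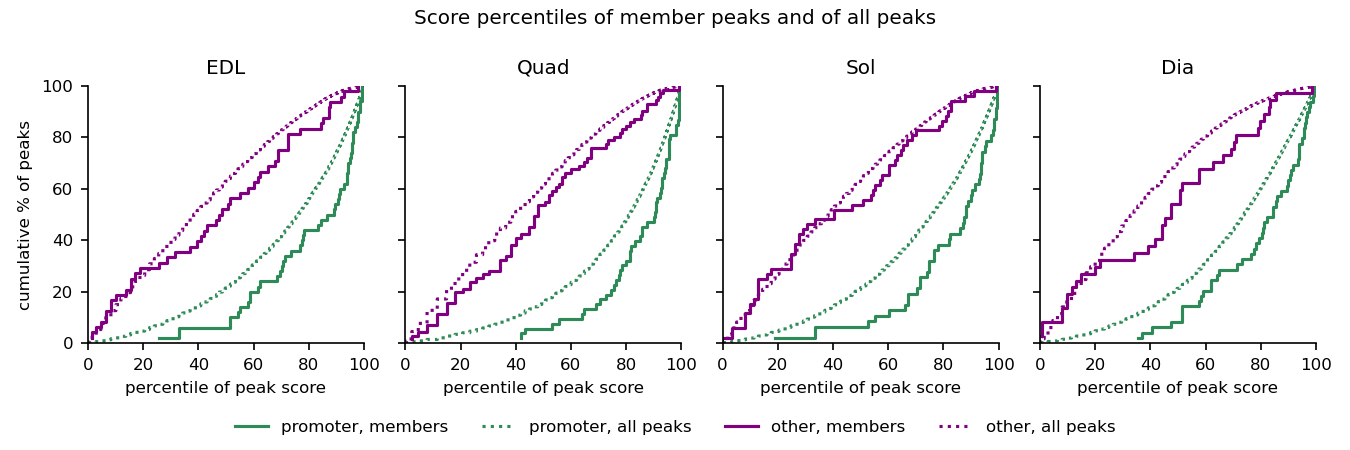
Cumulative share of peaks, in percent, by percentile of the peak score within each list, for promoter peaks (green) and other peaks (purple), with members as solid and all peaks as dotted lines. In every panel the solid green line runs to the right of the dotted one, with medians between 84.6 and 91.1 for member genes.

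A promoter peak in all 4 lists was found for 38 of the 57 members that had one in any list (66.7%, 53.7 to 77.5%), close to the 63.2% of all 11095 genes with one. When a peak counted for every gene whose annotated start it reached, whatever name the list gave, 52 of 76 members had one in all 4 lists (68.4%, 57.3 to 77.8%) against 39.6% of all protein-coding genes.

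By the median of promoter peaks in their own name, HSP70 stood above every other family of the module in each list. Of 11 genes, a promoter peak was called for 10 (EDL), 10 (Quad), 9 (Sol) and 10 (Dia), with median percentiles of 96.9, 97.1, 97.1 and 94.9. This order need not hold by position, since high peaks named for a neighbour, such as those of Dnajb11 and Hsp90b1, are left out. Hspa2, best known for its part in sperm formation, stood at 99.3 (EDL), 99.4 (Quad), 99.3 (Sol) and 99.3 (Dia). Its peak scores were 30.6 (27.3 to 34.1), 32.4 (28.5 to 36.6), 29.4 (26.2 to 32.9) and 29.2 (25.9 to 32.8), with intervals that overlapped between all lists. Hspa5, the chaperone of the endoplasmic reticulum, lay between 98.8 and 99.5, Hspa14, a partner of the ribosome, between 98.0 and 99.2, and Hspa8 between 97.5 and 99.4. Dnajb5, a J protein gene, stood at 99.2 to 99.6. With it, these had the 5 highest mean percentiles of the 38 members with a promoter peak in all lists by name, and Dnajb5 the highest. Members whose peak was named for a neighbour, such as Hsp90b1, were not ranked.

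Hspa9, the HSP70 of the mitochondrial matrix, reached 96.0 (EDL), 95.9 (Quad), 92.9 (Sol) and 94.0 (Dia). Hspa13, of microsomes, stood at 97.8, 98.2, 97.1 and 95.8. These genes were high in all muscles alike. Hspa12a, a distant relative of the family, behaved otherwise. At the promoter region that all lists shared it stood at 51.6 (EDL), 77.9 (Quad), 33.4 (Sol) and 62.1 (Dia), and its score of 10.8 in Quad (8.58 to 13.3) and 5.73 in Sol (4.38 to 7.38) had intervals that did not overlap. A second promoter region, 82301 bp away within Eno4, held a peak in Quad (78.4) and Dia (51.6). With the higher Quad peak, which lay in the second region, its range of 45.1 points was the largest among members with a promoter peak in all lists, and within the shared region it was 44.6. Hspa12b, which is expressed in vessels, had promoter peaks at 61.8 in EDL, 75.8 in Quad and 47.6 in Dia and none in Sol, where the nearest peak lay 1805 bp outside the start window at a percentile of 81.6.

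Hspa1a and Hspa1b, the strongly inducible pair of HSP70 genes, were not among the top promoters. Hspa1b stood at 83.3 (EDL), 85.6 (Quad), 76.6 (Sol) and 79.4 (Dia), with peak scores of 12.5 (10.4 to 14.9), 13.2 (10.8 to 16.0), 10.9 (8.99 to 13.1) and 12.3 (10.2 to 14.7). The intervals overlapped between all lists. Hspa1a had a peak in its own name in EDL (71.3) and Sol (82.3). The Quad (72.6) and Dia (59.2) peak lay farther upstream and was named for Hspa1l, a testis gene that starts 547 bp away on the other strand. The 250 bases upstream of Hspa1a and Hspa1b are identical at 247 positions (98.8%) and the first 1000 bases downstream at 996, whereas over 500 upstream bases 395 are identical. The aligner's default settings place a read with equally good positions at one of them. All 4 Hspa1b peaks lay upstream of these 250 bases, and the nearest ended 203 bp upstream of the gene's pair at −104 to −97. The part of read placement in this was not tested.

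**Figure D4:**
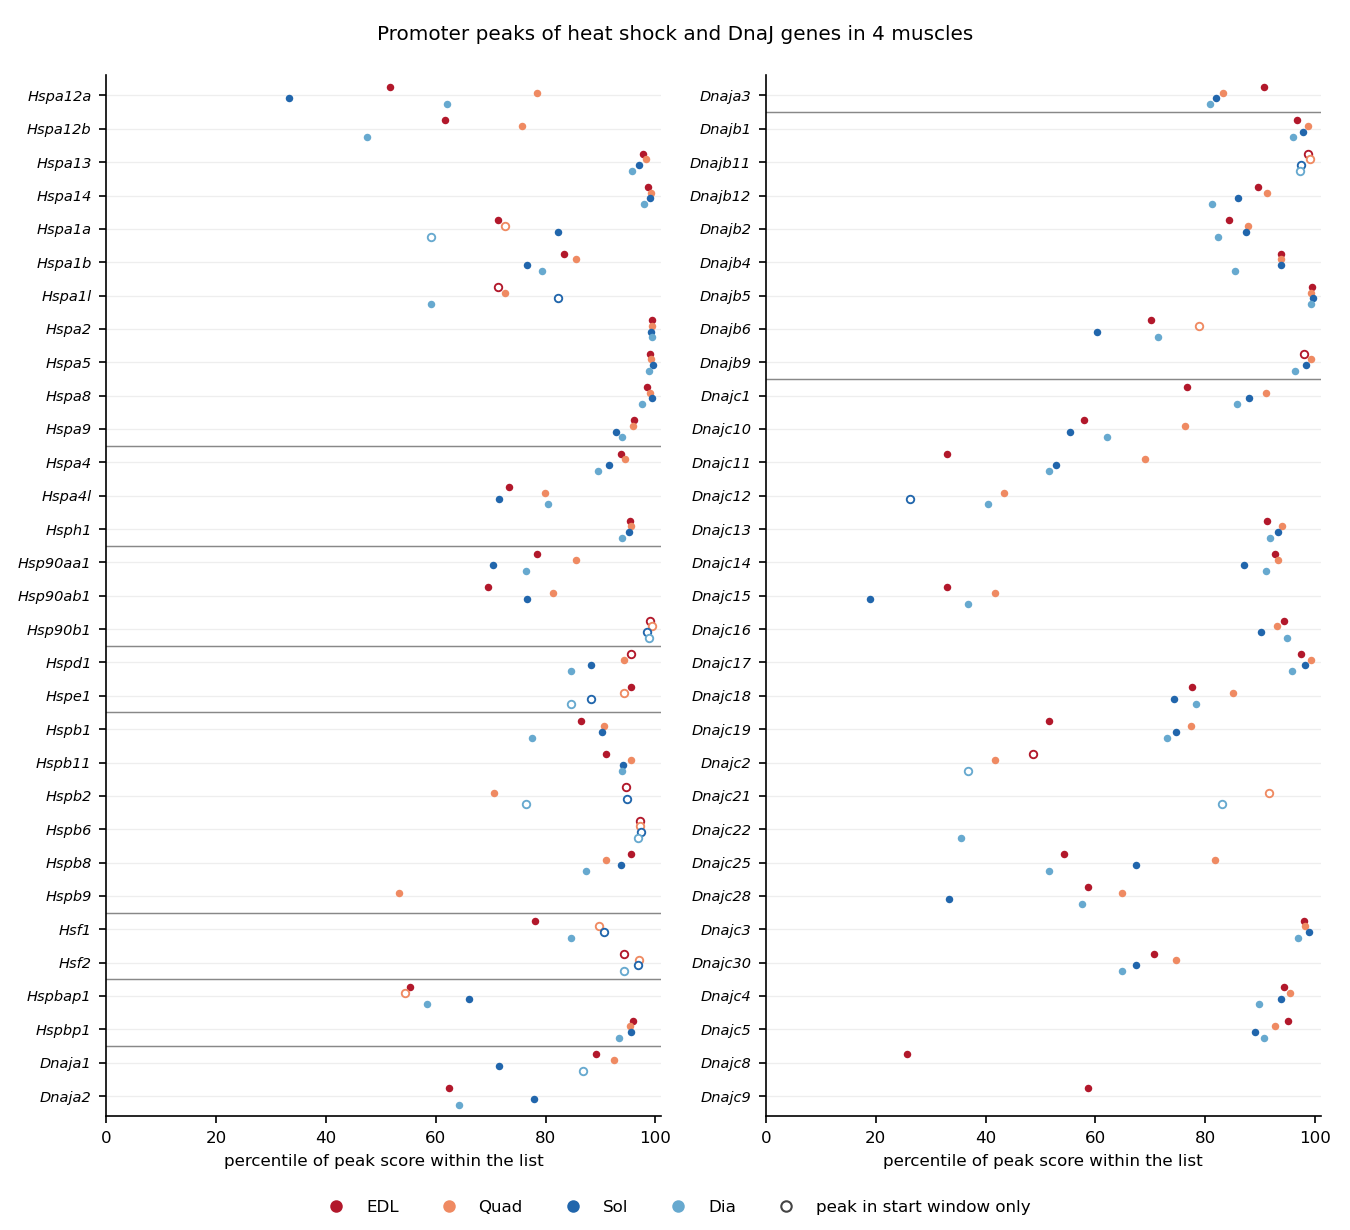
Percentile of the promoter peak score within each list for every member with a promoter peak or a peak in its start window, in order of family and with horizontal lines between families. Filled points are promoter peaks named for the gene and open points peaks that reach its start window without being named as its promoter; 6 of the 11 HSP70 genes sit above 90 in all lists, while Hspa12a spreads from 33.4 to 78.4, its Quad point being a peak at another start than those of the other lists.

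All 3 HSP110 genes had a promoter peak in every list. Hsph1 stood at 95.4 (EDL), 95.5 (Quad), 95.2 (Sol) and 93.9 (Dia). The peak centre moved although the rank did not, since the Quad and Sol peaks covered the start and those of EDL and Dia lay upstream. Hspa4, its constitutive relative, stood at 93.8, 94.5, 91.6 and 89.5, and Hspa4l at 73.4, 79.9, 71.6 and 80.5.

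Of the HSP90 genes, Hsp90aa1, the inducible cytosolic form, had promoter peaks at 78.4 (EDL), 85.6 (Quad), 70.5 (Sol) and 76.4 (Dia). Its scores of 11.2, 13.2, 9.75 and 11.5 had overlapping intervals. Hsp90ab1, the cytosolic form that is abundant without stress, stood at 69.6 in EDL, 81.3 in Quad and 76.6 in Sol, with a peak over the start and another farther upstream in each. In Dia no peak was called there, and the nearest lay 9106 bp beyond the start window at the promoter of Slc35b2. Among the 11 members of the stress list this was the one combination of gene and list without a peak in the start window. Hsp90b1, the form in the endoplasmic reticulum, had no peak in its own name, yet its start window held one of the highest peaks of each list (99.0, 99.3, 98.5 and 98.8), named for Ttc41, which starts 302 bp away on the other strand.

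The chaperonin genes Hspd1 and Hspe1 start 108 bp apart in opposite directions by the annotation, and 1 region served both. Its peaks stood at 95.5 in EDL, named for Hspe1, and at 94.3 in Quad, 88.2 in Sol and 84.6 in Dia, named for Hspd1. Neither gene was thus in all lists by name, and both were by position. The Quad and Dia peaks did not overlap each other and were joined through those of EDL and Sol.

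Small heat shock genes ranged from high promoters to none. Hspb1 had promoter peaks at 86.4 (EDL), 90.6 (Quad), 90.3 (Sol) and 77.6 (Dia). Hspb8, which acts with Bag3 in the removal of damaged sarcomere proteins, stood at 95.5, 91.0, 93.7 and 87.3. It was 1 of 5 members in all lists (with Dnajc1, Dnajc17, Dnajc25 and Hspa12a) whose highest and lowest scores had intervals apart, against 28.6% of all such genes. For Hspb8 these were the EDL peak, centred at −303 bp, and the Dia peak, at −105 bp, which covered mostly different bases. Hspb11, whose product is a subunit of the ciliary transport complex in spite of its name, stood at 91.0, 95.6, 94.1 and 93.9. Hspb2 and the lens and muscle crystallin gene Cryab start 553 bp apart, and the start window of Hspb2 held a peak at 94.7, 88.7, 94.9 and 76.4, named for Cryab, with a second one named for Hspb2 in Quad at 70.5. Hspb6, which is abundant in muscle, had a peak at 97.3, 97.2, 97.4 and 96.9 in its window, named for Proser3. Proser3 starts 996 bp away on the other strand. These peaks were centred −233, −153, −128 and −135 bp from the Proser3 start, nearer to it than to the Hspb6 start. Hspb3 had no window peak, and its nearest ones lay 1238 to 1539 bp beyond the window and stood at 72.4, 65.8, 78.3 and 45.3. Hspb7, a small heat shock gene of heart and skeletal muscle, had a peak at 798 bp into the gene in EDL (55.2) and at 768 bp in Quad (56.8), and in Sol and Dia the nearest peak of any name lay 23688 and 18530 bp beyond its window. Hspb9, a testis gene, had a promoter peak in Quad (53.3) and no other list. Of the 6 small heat shock genes with a known muscle role, 2 had a promoter peak in all lists by name and 4 by position. The count by position includes Hspb6 through the peaks near the Proser3 start.

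Both transcription factor genes had a peak in the start window in every list, in part under the name of a neighbour. Hsf1, the master factor of the stress response, had a promoter peak at 78.0 in EDL and 84.6 in Dia, and in Quad (89.8) and Sol (90.7) the peak was named for Bop1, 158 bp away. Hsf2 had no promoter peak in its own name, but a peak named for 4930467K11Rik reached its start window at 94.4 (EDL), 97.0 (Quad), 96.8 (Sol) and 94.4 (Dia).

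The class A J proteins act with cytosolic or mitochondrial HSP70. Dnaja3, of the mitochondrion, had promoter peaks at 90.8 (EDL), 83.3 (Quad), 82.0 (Sol) and 80.8 (Dia). Dnaja1 had one at 89.2 in EDL, 92.4 in Quad and 71.6 in Sol, and its window held a peak named for Gm6297 at 91.6 in Sol and 86.8 in Dia. Dnaja2 had one at 62.5 in EDL, 77.9 in Sol and 64.2 in Dia, and its Quad peak, at 72.6, was centred 167 bp into the gene and missed the window by 46 bp. Dnaja4 had none, with a single peak in its intron in Sol at 55.3.

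The class B genes ranged from the top of the lists to no promoter peak at all. Dnajb1 stood at 96.6 (EDL), 98.7 (Quad), 97.8 (Sol) and 96.0 (Dia). Dnajb4 stood at 93.8, 93.7, 93.7 and 85.4, Dnajb12 at 89.6, 91.3, 85.9 and 81.2, and Dnajb2 at 84.3, 87.7, 87.5 and 82.3. Dnajb6 had promoter peaks at 70.2 in EDL, 60.3 in Sol and 71.4 in Dia, and in Quad its start carried a peak at 78.9 named for Gm5129, which starts 4 bp away. Dnajb9, induced by stress of the endoplasmic reticulum, stood at 99.2 in Quad, 98.3 in Sol and 96.3 in Dia, and at 98.0 in EDL under the name Mir5627. Dnajb11, of the same compartment, had a window peak at 98.7, 99.1, 97.5 and 97.2 named for Tbccd1. Dnajb3, Dnajb7, Dnajb8 and Dnajb13, known from testis, and Dnajb14 had no window peak in any list.

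Of the 28 class C genes, 16 had a promoter peak in all lists and 21 in any. The highest were Dnajc3, a cochaperone of the endoplasmic reticulum, at 96.9 to 98.9, and Dnajc17 at 95.7 to 99.1. Dnajc4, Dnajc5, Dnajc13, Dnajc14 and Dnajc16 stood between 87.1 and 95.4 in every list. The lowest 5 members in all lists by mean percentile comprised 4 class C genes and Hspa12a. Dnajc15, which assists protein import into mitochondria, stood at 33.0 (EDL), 41.8 (Quad), 19.0 (Sol) and 36.8 (Dia). Dnajc11, of the mitochondrial membranes, stood at 33.0, 69.0, 52.8 and 51.6, Dnajc28 at 58.7, 64.9, 33.4 and 57.6, and Dnajc10, a reductase of the endoplasmic reticulum, at 57.9, 76.4, 55.3 and 62.1.

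By percentile, the widest ranges were found at weak promoters, though percentiles are compressed near the top of a list. A range of 20 points or more over the lists was seen for 7 of 38 members, against 29.5% of all 7008 genes with a promoter peak in every list. They were Hspa12a, Dnajc11, Dnajc28, Dnajc25 (EDL 54.4, Quad 81.7, Sol 67.3, Dia 51.6), Dnajc19 (51.6, 77.5, 74.7 and 73.0), Dnajc15 and Dnajc10. Next came Hsp90aa1, with a range of 15.1 points, Dnajc1 (76.7, 91.0, 88.0 and 85.8) and Hspb1. The low count goes with level. The median range was 6.00 points for members and 12.2 for all genes, but among genes with a mean percentile of 90 or more it was 2.67 for 21 members and 3.26 for all, and between 50 and 70 it was 30.1 for 7 members and 24.3 for all. Of the 7 members with a wide range, Hspa12a and Dnajc25 had highest and lowest scores with intervals apart. By score, intervals were also apart at 3 stronger promoters. Those were Dnajc17 (Quad 30.2, Dia 21.2), Hspb8 (EDL 20.4, Dia 15) and Dnajc1 (Quad 16, EDL 10.8). The Hspb8 peaks of EDL and Dia were centred at −303 and −105 bp and covered mostly different bases. Scores are not adjusted for peak width, which differs between lists, and the intervals cover counting error only. The Dnajc11 promoter scored 5.58 (4.24 to 7.21) in EDL and 8.96 (6.99 to 11.3) in Quad, on 58 and 70 tags, and these intervals overlapped. All 4 percentiles were above 90 for 15 of 38 members, against 21.9% of all such genes. Quad gave the highest percentile for 26 of the 38 and Dia the lowest for 20, a list-wide pattern, since this was so for 64.6% and 46.0% of all genes.

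By name, 19 members had a promoter peak in 1 to 3 lists only and 19 in none. For the first 19, there were 37 combinations of gene and list without one, and in 20 of them a peak did reach the gene's start window. The windows of 10 of these genes held a peak in all 4 lists. Apart from the cases above, Hspbap1 was named Dirc2 in Quad and Dnajc2, of the ribosome, was named Psmc2 in EDL and Dia. In all, 18 of the 76 members have another coding gene that starts within 1 kb on the opposite strand. Hspa1a with Hspa1l and Hspd1 with Hspe1 are counted from both sides. The share over all coding genes was not computed, so this count is no trait of the module. The window lacked a peak in some but not all lists for 10 genes, among them Dnaja2, Hsp90ab1, Hspa12b, Hspb9 and Dnajc2. Of the others, Dnajc8 had one in EDL alone (25.6), Dnajc9, a histone chaperone, in EDL alone (58.7), Dnajc22 in Dia alone (35.4), and Dnajc12 in Quad (43.4), Sol (26.2) and Dia (40.5). Outside this window, Dnajc12 had a higher site in every list (84.3, 81.3, 66.7 and 66.2). The lists place it in intron 1 of another transcript, 344 to 384 bp from that start.

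Among the 19 members without a promoter peak, the windows of Dnajb11, Hsf2, Hsp90b1 and Hspb6 held a peak in all lists, that of Dnajc21 in Quad and Dia, and those of the other 14 in none. Some of these had an open site just inside the gene in every list. Dnajc21, which assists ribosome formation, had one centred 185 to 215 bp into the gene (EDL 72.4, Quad 91.5, Sol 82.7, Dia 83.0). Dnajc27 had one at 325 to 404 bp (87.2, 87.4, 82.7 and 81.2), Dnajc24 at 225 to 286 bp (60.3, 57.9, 53.7 and 47.6) and Dnajc7 at 498 to 591 bp (76.7, 85.9, 60.3 and 69.3). Dnajc5b, of testis, had a peak in intron 1, 902 to 945 bp into the gene, at 57.9, 64.9, 26.2 and 8.03. Dnajc5g and Dnajc6, the latter an uncoating factor of clathrin vesicles in nerve cells, had no peak near the start.

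By compartment, all 8 mitochondrial members and 9 of 10 of the endoplasmic reticulum had a window peak in every list, although 6 of each did by name. Of the 11 members of the stress list 10 did by position and 6 by name. Of 8 testis members 1, Hspa1l, did, through peaks that also reach the start window of Hspa1a. Those of EDL and Sol did not overlap those of Quad and Dia. The testis list did not include Hspa2, which had a promoter peak in every list, at 99.3 to 99.4. The median promoter percentile was lower for mitochondrial members, at 70.7, 77.5, 74.7 and 73.0, than for those of the endoplasmic reticulum, at 93.7, 98.1, 97.1 and 95.8.

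Member peaks outside promoters were of middling rank. Their median percentile was 48.2 in EDL (31.5 to 62.5, n = 48) and 48.0 in Quad (38.2 to 56.8, n = 71), and it was 40.5 in Sol (26.2 to 57.8, n = 52) and 47.6 in Dia (34.1 to 57.6, n = 37), against 38.3, 40.0, 38.2 and 34.1 for all peaks outside promoters. In EDL 22 of 48 were annotated to introns and 17 were intergenic, and in Quad 28 of 71 were of either kind. Of 107 joined regions, 21 had a peak in all lists (19.6%, 13.2 to 28.1%), against 16% of all such regions. Of 62 promoter regions 43 did (69.4%, 57.0 to 79.4%), against 66.1%. Regions of 1 list numbered 58 of the 107 (54.2%, 44.8 to 63.3%), against 50.5% of all such regions. The members' interval held the share of all regions in each of these cases. The 58 comprised 30 in Quad, 14 in Sol, 10 in EDL and 4 in Dia. The same split over all regions was not computed, so this one is no trait of the module. Quad has the longest list (40337 peaks) and Dia the shortest (21582).

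**Figure D5:**
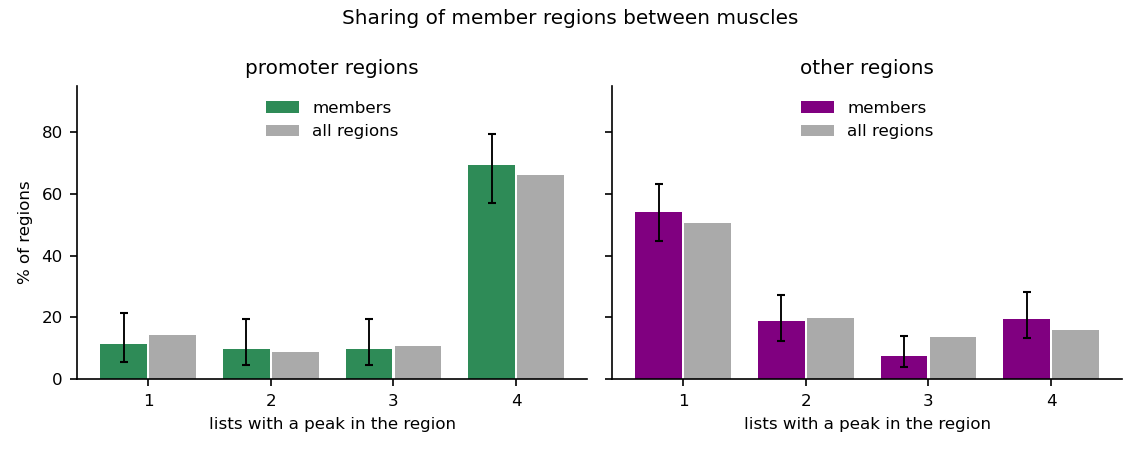
Share of joined regions, in percent, by the number of lists with a peak in them, for member promoter regions (left, green) and other member regions (right, purple) with 95% Wilson intervals, beside all regions of the same kind (grey). Promoter regions gather at 4 lists (69.4% of members) and other regions at 1 list (54.2% of members and 50.5% of all).

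The nearest gene is often not the gene that holds the site. Of the 107 regions, 33 lay in the body of the member itself, 23 in the body of another gene and 51 in none. The same split over all regions outside promoters was not computed, so this one is no trait of the module. The highest of all, chr14:119007469-119007710, stood at 97.7 (EDL), 99.3 (Quad), 99.1 (Sol) and 98.4 (Dia). It was assigned to Dnajc3 from a distance of 69674 bp and lies in intron 33 of Uggt2, which encodes a sensor of glycoprotein folding. An intergenic site at −30944 bp from Dnajc11, chr4:151902672-151902940, stood at 92.7, 91.0, 91.2 and 83.3, above the promoter of that gene in each list. A site at the end of a neighbouring gene, chr5:135907390-135907638, 19575 bp downstream of the Hspb1 start in EDL, stood at 87.2, 92.1, 80.8 and 79.8. An intergenic site at −8638 bp from Hspa4 stood at 87.6, 87.7, 87.8 and 85.4. Each of these 4 had a peak in all lists.

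Dnajb5 had 2 strong peaks in its intron 3, close to each other and each in a single list. The site chr4:42953556-42953764, 3264 bp from the start, stood at 91.7 in EDL, and the site chr4:42953955-42954143, 3653 bp from it, at 93.5 in Quad. With 190 bp between them, they did not overlap, and peaks joined within 500 bp would make them 1 region of both lists. By overlap they were the highest sites found in 1 list alone in EDL and Quad, and neither Sol nor Dia had a peak in either place. For Sol the highest such site was at −24658 bp from Dnajc11 (68.6) and for Dia 21515 bp from Dnajb12 (51.6). The 10 highest sites also held those in Dnajc21, Dnajc27 and Dnajc7 and one 15881 bp from the Hspb1 start, which stood at 85.3 in Quad, 62.5 in Sol and 79.1 in Dia and had no peak in EDL.

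Sites outside promoters were unevenly spread over the genes. Over the 4 lists, Dnajb12 had 18 such peaks, Hspb1 15 and Hspa8, Hspa12b and Dnajc5b 14 each. Those of Hspa8 included a site in the first intron of Clmp, at −43430 bp in EDL, which stood at 25.6 (EDL), 52.1 (Quad), 69.9 (Sol) and 70.4 (Dia). Those of Hspa12b included 2 sites in its own introns, 7254 and 13091 bp from the start in EDL, with a peak in all lists. They stood at 72.4, 73.3, 79.6 and 57.6 for the first and at 69.0, 75.8, 64.6 and 50.6 for the second. A site upstream of the same gene, at −2932 bp in EDL, stood at 51.6 (EDL), 78.4 (Quad), 81.6 (Sol) and 47.6 (Dia), and Sol was thus highest where its promoter peak was missing. A site 31084 bp from the Dnaja2 start, in an intron of Gpt2, stood at 85.3 in EDL and 82.9 in Quad, and at 51.0 in Sol and 57.6 in Dia.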

How the data were processed

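Muscles came from male mice bought at 7 to 8 weeks, whose age at dissection is not given for these lists. They were frozen, pulverised and transposed with Tn5, and 42-bp read pairs were sequenced. The authors aligned reads to mm10 with Bowtie2 at default settings, kept 1 tag per position at most, called fixed-width peaks with HOMER and annotated them to the nearest start, with promoters from 1 kb upstream to 100 bp downstream. The Tn5 offset is not given in the sources used here. The deposited peak score is a signal, a tag count scaled by library size. Captions of the study give an n of 1 to 2, or of 2, per group for ATAC-seq tags, and how many animals or libraries each pooled list combines is not stated.

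From these lists, percentiles (mid-ranks), joined regions, start windows (1 kb upstream to 100 bp downstream of any start in GENCODE, GRCm38) and elements were computed in Python 3.11.15 (pandas 2.3.3, scipy 1.17.1), and steps were tested on simulated data. A gene's best promoter peak stood for it. Shares have Wilson intervals, medians binomial rank intervals and scores Poisson intervals, all at 95%. Tags were read from the spacing of scores, to which 100% of scores under 10 fitted within rounding.

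Members, lists and rules were chosen with earlier results of these data known. Named were all HSP90, HSP110, chaperonin, small heat shock, Hsf and stress-inducible members, members with a promoter peak in fewer than 4 lists, the 10 with the largest range, the 5 highest and 5 lowest, the 10 highest other sites, the highest of each single list and the 5 genes with most other peaks. Others were named after their values were seen. Sequences are upstream of the start except the Hsp90aa1 site, which crosses it. Coordinates are those of the files.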

Additional observations from a re-analysis of the deposited data

How the results depend on the processing

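No paired analysis was possible because each muscle has 1 pooled list, and no list could be left out for the same reason. Of 135 values under 11 alternatives, 117 stayed within the interval, or within 1.5 times the count, of the value reported. With each list reduced to its 20000 highest peaks, the promoter share of members was 60.2% in Quad and 61.3% in Sol, and 48.3% of member regions had a peak in all lists. With only the upper 50% of scores, members' promoter share was 67.1% (EDL), 60.2% (Quad), 64.7% (Sol) and 72.6% (Dia), regions in all lists made 52.0%, and the median promoter percentile in Dia was 71.1. By annotated starts, 83.9% of the members with a promoter peak had one in all lists. With 50% reciprocal overlap, 27.3% of member regions were in all lists. For these settings the shares over all peaks, all regions or all genes with a peak were not computed. The members' values therefore have no background beside them. Ranked among promoter peaks alone, the median percentile was 72.2 (EDL), 71.7 (Quad), 70.6 (Sol) and 68.5 (Dia). An alternative chosen after seeing the data, a reduction to the 10000 highest peaks, gave 72.4 (Quad), 71.7 (Sol) and 71.0 (Dia). The last 2 settings, the upper 50% and the 20000 highest peaks rank peaks within a shorter list by construction. Depth limits what an absent peak can show, since the weakest peaks called held 25 to 36 tags.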

Other observations

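Chaperones and cochaperones outside the name rule were counted the same way. Of 45 listed genes, 44 of which are annotated under that symbol, 34 (EDL), 33 (Quad), 31 (Sol) and 31 (Dia) had a promoter peak, and 24 had one in all lists by name and 35 by position. Their median percentile was 84.8, 84.7, 83.4 and 76.8. Stip1, which joins HSP70 to HSP90, stood at 99.8 (EDL), 99.9 (Quad), 99.8 (Sol) and 99.9 (Dia), and Grpel1, the nucleotide exchange factor of mitochondrial HSP70, at 99.6, 99.3, 99.5 and 98.1. Bag3, the partner of Hspb8, stood at 93.3, 96.1, 94.4 and 94.9. Unc45b, the myosin chaperone of striated muscle, had a promoter peak at 84.5 in EDL, 81.3 in Quad and 84.5 in Sol and none in Dia, and Cryab, next to Hspb2, stood at 94.7, 88.7, 94.9 and 76.4. Trap1, the HSP90 of the mitochondrion, was lower, at 68.4, 52.1, 43.8 and 48.7. Genes of the cytosolic chaperonin ranged from Tcp1, at 99.6 in EDL, 99.9 in Quad and 99.7 in Sol, to Cct5, at 80.3, 66.6, 63.2 and 66.2.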
